A study of Bos taurus with 4 samples.

Results

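Genes for the translation initiation factors (EIF genes) were compared between bovine expanded blastocysts developed from vitrified morulae and those developed from control morulae. The members were all probes of the EmbryoGENE EMBV3 array whose gene symbol starts with EIF and a digit, with EIF1AX, EIF1AY and the EIF2AK kinases left out. They came to 71 probes for 46 genes, out of 43794 probes, of which 21790 carry 1 of 15229 gene symbols. In the gene table of the ARS-UCD2.0 assembly, 42 of the 46 symbols were found by name and 4 by a synonym. EIF2C1, EIF2C2 and EIF2C3 are older names of AGO1, AGO2 and AGO3. EIF3C was listed under EIF3CL, so the signal of its 2 probes may come from more than 1 near-identical copy and is uncertain.

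Translation initiation brings a ribosome to the start codon of an mRNA. EIF2 carries the initiator tRNA to the small ribosomal subunit, EIF3 holds the complex together, the EIF4 factors bind the cap of the mRNA and unwind it, and EIF5 and EIF5B take part in start codon recognition and the joining of the large subunit. The pathway is a control point of protein synthesis, since stress kinases phosphorylate EIF2 and MTOR signaling releases EIF4E from its binding proteins, and a blastocyst depends on protein synthesis as it expands.

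The 4 arrays of 1 slide each held 1 vitrified and 1 control pool of blastocysts, which made 4 pairs of pools. All were beef breed embryos produced in vitro, with 7 expanded blastocysts per pool collected at day 7 by the labels, which give morulae of day 6. The Methods allow smaller pools and give later morulae. Vitrified morulae were equilibrated with ethylene glycol and dimethyl sulfoxide, plunged into liquid nitrogen on a cryotop, warmed and cultured on, whereas control morulae were cultured without freezing, although the cryopreservation label reads Yes for both. The dyes were swapped, with the vitrified pool in Cy5 on arrays 1 and 2 and the control pool in Cy5 on arrays 3 and 4. Each value is the log2 ratio of vitrified over control blastocysts after loess and quantile normalization, and the number of arrays limits its precision. Pools came from separate fertilization cycles by the Methods, but which cycle each array held is not given.

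Between 60.1% and 67.3% of all probes were above background per pool. Of the markers looked up, all 16 of the trophectoderm, 7 of 9 of the inner cell mass and 6 of 7 of the hypoblast were above background in all 8 readings, against 2 of 10 for the oocyte, 2 of 10 for cumulus cells and 2 of 8 for sperm (KPNA7 and MOS, CYP19A1 and INHBA, PRM1 and TNP1). GDF9, HAS2, AMHR2, AKAP4 and PRM2 were above background in no reading. The summed intensity of the trophectoderm markers lay between 17.3 and 17.6 (log2) in vitrified pools and between 17.7 and 18.2 in control pools. That of the inner cell mass markers lay between 15.0 and 15.4 in vitrified and between 14.7 and 15.0 in control pools. At an unadjusted p under 0.05 in limma, 7 of 16 trophectoderm markers were lower in vitrified blastocysts and 0 higher. Of 9 inner cell mass markers, 2 were higher and 1 was lower. Over all genes tested, 3.5% were higher and 5.3% lower. The sums overlapped between groups for hypoblast (15.3 to 16.2 in vitrified, 15.2 to 16.3 in control), oocyte (10.3 to 10.4 in both), cumulus (10.5 to 10.6 in both) and sperm markers (9.87 to 10.3 in vitrified, 9.87 to 10.1 in control). The hypoblast sums followed the dye orientation, with log2 ratios of 0.89, 0.94, -0.86 and -0.88 on arrays 1 to 4. The part of these marker shifts in the EIF values was not tested. In pooled embryos, fewer cells of a type and less RNA per cell cannot be told apart.

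No EIF gene showed a measured difference of 2-fold between blastocysts from vitrified and control morulae. Of the 44 EIF genes tested, each by its brightest probe, EIF4A2, EIF3M and EIF3E passed an unadjusted p under 0.05 in limma with higher levels in vitrified blastocysts, and none passed with lower levels. Over all 11417 genes tested, 3.5% were higher and 5.3% lower by that rule, so 3 of 44 is close to the background. None met the study's threshold of a 2-fold change together with an unadjusted p under 0.05 (0.394% of all genes did), and none passed an adjusted p under 0.05, where the lowest value among EIF genes was 0.566 and 0 of all genes passed. The log2 fold changes ran from -0.36 for EIF4A1 to 0.58 for EIF4A2, with a median of 0.073 (0.0023 over all genes), which was 0.030 without array 3. Of the 44 genes, 28 had a log2 fold change over 0, against 50.4% of all genes.

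The intervals given next reflect the spread between arrays of the brightest probe of each gene. They leave out disagreement between probes of a gene, so they do not bound the difference of the gene itself. The 95% interval of the log2 fold change lay within 2-fold in either direction for 43 of the 44 EIF genes, the exception being EIF4A2 (0.14 to 1.03). The interval extended by a median of 0.36 to either side. Over all genes, 96.1% had such an interval. The median SD of a gene's ratio over the 4 arrays was 0.27 for EIF genes and 0.33 for all genes, and the median size of the log2 fold change was 0.15 for both. EIF4E1B, an oocyte form of the cap-binding protein, and EIF4EBP1, an inhibitor of EIF4E, were not tested because neither of their 2 probes was above background in more than 1 of 8 readings. A further 4 genes, EIF2C1, EIF2C3, EIF4G3 and EIF5A2, were tested but not above background in all 8 readings.

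**Figure D1:**
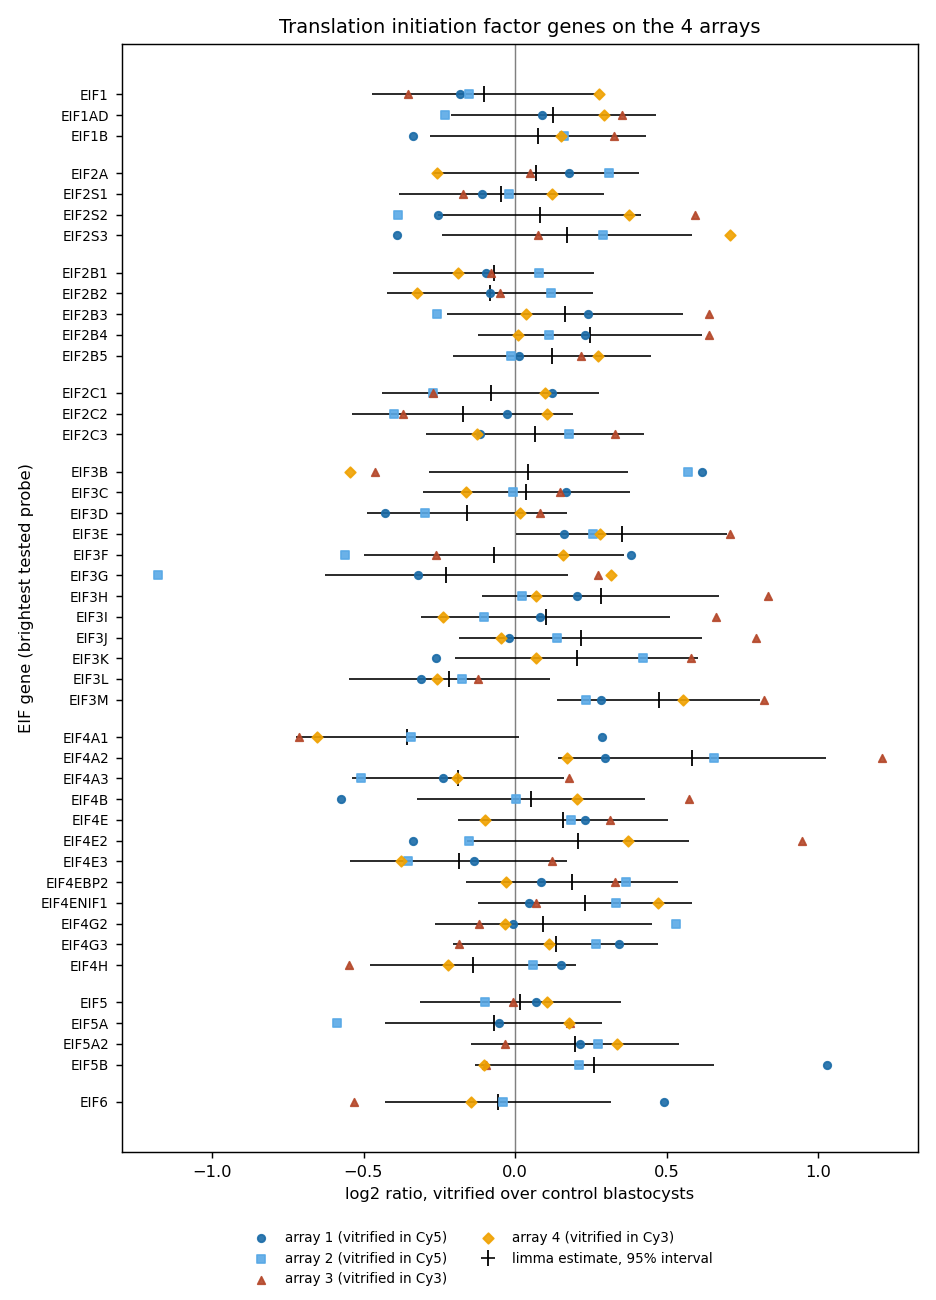
Log2 ratio of vitrified over control blastocysts (x axis) for the 44 EIF genes tested (rows, ordered by group), with a symbol for each of the 4 arrays and the limma estimate with its 95% interval in black. Most genes have ratios on both sides of 0, and the ratios of EIF4A2, EIF3M and EIF3E lie to the right of 0 on all 4 arrays.

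By group, the median ratio of vitrified over control blastocysts was over 0 on all 4 arrays for EIF3 and EIF2B and changed sign between arrays for EIF1, EIF2, EIF2C, EIF4, EIF5 and EIF6. The 12 EIF3 genes had median log2 ratios of 0.12, 0.0086, 0.43 and 0.042 on arrays 1 to 4, and the 5 EIF2B genes had 0.012, 0.079, 0.22 and 0.0095. Both groups had their highest value on array 3. On array 2 the EIF3 median was below that over all genes (0.019), and on arrays 1, 3 and 4 it was above. The EIF2B median was above that over all genes on each array. The 12 EIF4 genes had medians of 0.065, 0.12, 0.15 and -0.032, and the 4 EIF5 genes had 0.14, 0.056, -0.020 and 0.14. The 4 EIF2 genes had -0.18, 0.13, 0.061 and 0.25, and the 3 EIF1 genes had -0.18, -0.15, 0.33 and 0.28. The EIF1 medians thus split along the dye orientation, although no single gene of that group did. EIF6, a single gene, had the widest range, with 0.49, -0.041, -0.53 and -0.15. The 3 EIF2C genes had -0.025, -0.27, -0.27 and 0.099. All 44 genes together had 0.058, 0.014, 0.13 and 0.068, against -0.043, 0.019, 0.016 and 0.0042 over all genes.

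The mean of the 4 array medians was highest for EIF3 (0.15 ± 0.19) and lowest for EIF2C (-0.12 ± 0.19; SD, n = 4 arrays). Between these lay EIF5 (0.080 ± 0.078), EIF2B (0.080 ± 0.098), EIF4 (0.076 ± 0.081), EIF1 (0.067 ± 0.27), EIF2 (0.066 ± 0.18) and EIF6 (-0.057 ± 0.42). Each pair of neighbours in this order differed by less than the SD of either. The median of EIF5 was above that of EIF2C on each array, whereas the median of EIF3 was above it on arrays 1 to 3 only. Differences between groups were not tested, and the order depends on the measure and on single arrays. By the median log2 fold change, EIF2B had 0.12, EIF4 and EIF5 had 0.11, and EIF1 and EIF2 had 0.076. EIF3, at 0.073, was below each of these, while EIF2C remained the lowest at -0.080. Without array 3, EIF3 had 0.015 and EIF5 had the highest median, 0.15.

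**Figure D2:**
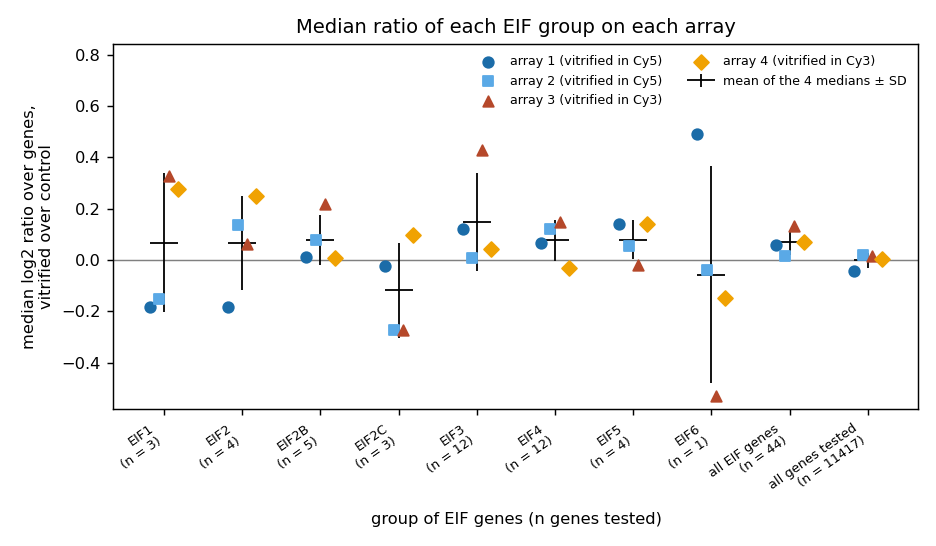
Median log2 ratio of vitrified over control blastocysts (y axis) over the genes of each EIF group, of all EIF genes and of all genes tested (x axis, with the number of genes), with a symbol for each array and a bar for the mean of the 4 medians ± SD. EIF1 lies below 0 on arrays 1 and 2 and above 0 on arrays 3 and 4, and EIF6 runs from -0.53 to 0.49.

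EIF4A2, a helicase that unwinds the 5′ end of mRNAs, had the largest value among EIF genes. Its normalized log2 intensity was 10.07, 10.03, 10.24 and 9.92 in vitrified pools, against 9.77, 9.37, 9.03 and 9.74 in control pools of arrays 1 to 4. The 4 vitrified pools were all above the 4 control pools, which held for 1 of 44 EIF genes and for 1.52% of all genes, and none of the 44 had the reverse (2.08% of all genes). The ratios were 0.30, 0.66, 1.21 and 0.17, which gave a log2 fold change of 0.58 (SE 0.19), a 1.50-fold higher level, with an unadjusted p of 0.0153 and an adjusted p of 0.596 from limma. The estimate was 0.84 without array 4 but 0.32 without array 3 and 0.49 without array 2, and in these last fits the unadjusted p was 0.118 and 0.0678.

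EIF4A1, the other helicase of the cap-binding complex, went the opposite way on 3 of 4 arrays. It had 13.51, 13.30, 12.96 and 12.81 in vitrified pools, against 13.22, 13.64, 13.67 and 13.46 in control pools. The vitrified pools of arrays 3 and 4, both in Cy3, were the lowest of the 8. The ratio on array 1 was 0.29, against -0.34, -0.71 and -0.65 on arrays 2 to 4. The dye term of EIF4A1 was 0.33 (unadjusted p = 0.0751, limma), close in size to its group difference. The log2 fold change was -0.36 (SE 0.16) with an unadjusted p of 0.0573 from limma, and it was -0.51 without array 1 but -0.20 without array 2, where the unadjusted p was 0.359. The ratio of EIF4A2 exceeded that of EIF4A1 on each array, by 0.011, 1.00, 1.92 and 0.83 (mean 0.94 ± 0.78, SD, n = 4). The pair was set side by side with the values known, so this difference is a description. EIF4A3, the helicase of the exon junction complex, had -0.19 (SE 0.15).

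**Figure D3:**
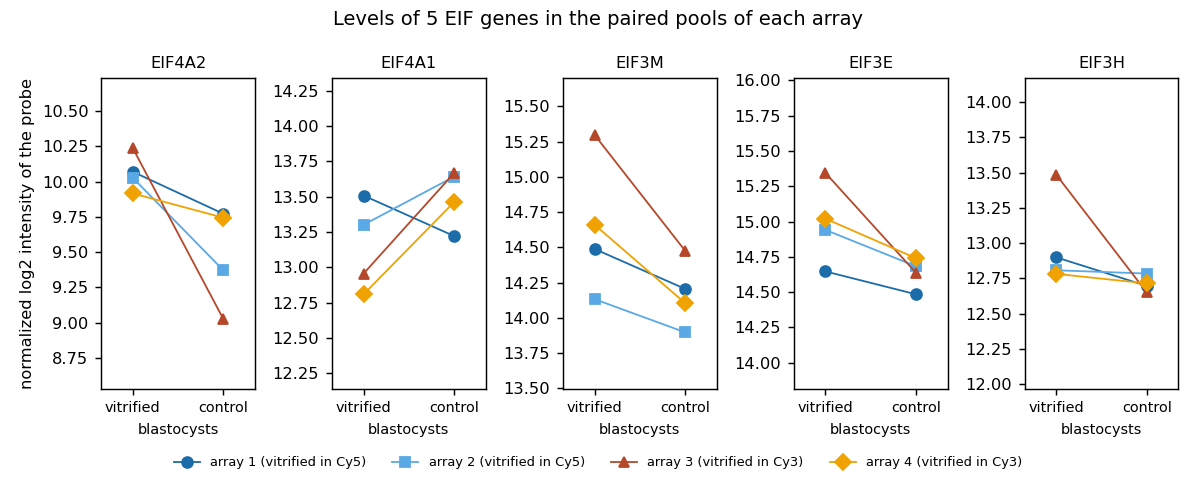
Normalized log2 intensity (y axis, each panel spanning the same range) of 5 EIF genes in the vitrified and the control pool of each array, joined by a line. For EIF4A2 the 4 vitrified pools lie above the 4 control pools, for EIF3M and EIF3E each line falls toward the control pool, and for EIF4A1 the lines of arrays 2 to 4 rise toward it.

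The other EIF4 genes had log2 fold changes within 0.25 of 0 by their brightest probes. EIF4B, which stimulates the helicase, had 0.052 (SE 0.17), its ratios lying between -0.57 and 0.57, and EIF4H, its relative, had -0.14 (SE 0.15). EIF4E, which binds the cap, had ratios of 0.23, 0.19, 0.31 and -0.098 and a log2 fold change of 0.16 (SE 0.15). EIF4E2, a cap-binding protein known as a repressor, had 0.21 (SE 0.16), but its other probes gave -0.23 and -0.055. EIF4E3 had -0.19 (SE 0.16). The scaffold EIF4G3 had 0.13 (SE 0.15), and EIF4G2, a relative that lacks the EIF4E-binding part, had 0.094 (SE 0.16). EIF4G3 was above background in 3 of 4 vitrified and 1 of 4 control readings, so that its size is uncertain. The EIF4E-binding proteins EIF4ENIF1 and EIF4EBP2 had positive values. EIF4ENIF1, which carries EIF4E into the nucleus, had ratios of 0.046, 0.33, 0.070 and 0.47 and a log2 fold change of 0.23 (SE 0.16), and EIF4EBP2, which blocks EIF4E, had 0.19 (SE 0.15).

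Among the EIF3 subunits, EIF3M and EIF3E passed an unadjusted p under 0.05, both with more signal in vitrified blastocysts. EIF3M had 14.49, 14.13, 15.30 and 14.66 in vitrified pools, against 14.21, 13.90, 14.48 and 14.11 in control pools of arrays 1 to 4. The vitrified pool was the higher one on each array, but the levels of the groups overlapped. Its log2 fold change was 0.47 (SE 0.15; unadjusted p = 0.0110, adjusted p = 0.566, limma), or 1.39-fold, and it was between 0.41 and 0.54 when an array was left out, with an unadjusted p of 0.0509 without array 3. EIF3E had 14.65, 14.94, 15.34 and 15.02 in vitrified pools, against 14.48, 14.68, 14.64 and 14.74 in control pools. Array 3 again held the highest vitrified pool, and each vitrified pool was above its partner, but the levels of the groups overlapped. The log2 fold change was 0.35 (SE 0.15; unadjusted p = 0.0478, adjusted p = 0.651, limma), or 1.28-fold, and its unadjusted p was 0.106, 0.153 and 0.211 without arrays 1, 2 and 3.

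EIF3H also had the same direction on each array, with ratios of 0.20, 0.023, 0.83 and 0.068, but its value rested on array 3. Its log2 fold change was 0.28 (SE 0.17; unadjusted p = 0.136, limma), and 0.090 without array 3. EIF3L was the only gene of the 44 whose brightest probe had a ratio under 0 on all 4 arrays, at -0.31, -0.18, -0.12 and -0.26, and a log2 fold change of -0.22 (SE 0.15; unadjusted p = 0.172). With EIF3C, EIF3F and EIF3K, these genes encode 7 of the PCI and MPN domain subunits of the EIF3 core in mammals. EIF3A, which also belongs to that core, and the EIF4 scaffold EIF4G1 were not analysed here. The 7 genes had a median log2 fold change of 0.20, with EIF3K at 0.20, EIF3C at 0.037 and EIF3F at -0.070. The other subunits showed no shared direction, with 0.22 for EIF3J, 0.10 for EIF3I, 0.044 for EIF3B, -0.16 for EIF3D, which can bind the cap, and -0.23 for EIF3G, an RNA-binding subunit. EIF3G had the lowest single ratio among the 44 brightest probes, -1.18 on array 2, beside -0.32, 0.27 and 0.32 on the other arrays. Of the 12 EIF3 genes, 3 were over 0 and 1 was under 0 on all 4 arrays. Over all 44 EIF genes these numbers were 6 and 1, against 7.49% and 8.33% of all genes.

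The subunits of EIF2 did not differ detectably. EIF2S1, the subunit that stress kinases phosphorylate, had 13.19, 13.11, 12.89 and 13.14 in vitrified pools, against 13.30, 13.13, 13.06 and 13.01 in control pools. These levels overlapped, and the log2 fold change of -0.045 (SE 0.15) had a 95% interval of -0.38 to 0.29. EIF2S2 had ratios of -0.26, -0.39, 0.59 and 0.37 (log2 fold change 0.081, SE 0.15). EIF2S3, which binds GTP and the initiator tRNA, had -0.39, 0.29, 0.074 and 0.71 (0.17, SE 0.18). EIF2A, a separate protein that can bring the initiator tRNA to some mRNAs, had 0.18, 0.31, 0.048 and -0.26 (0.070, SE 0.15). The brightest probe of each of these genes thus had ratios on both sides of 0, but the second probe of EIF2S2 was under 0 on all 4 arrays, at -0.37, -0.26, -0.089 and -0.097 (-0.21, SE 0.14). EIF2S3 was 0.0015 without array 2 and 0.34 without array 1.

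EIF2B is the exchange factor that reloads EIF2 with GTP, and phosphorylated EIF2 blocks it. EIF2B5, its catalytic subunit, had ratios of 0.012, -0.015, 0.22 and 0.27 and a log2 fold change of 0.12 (SE 0.14). This value is also the median of the EIF2B group. The other probes of EIF2B5 differed in sign, at 0.16 (SE 0.15) and -0.089 (SE 0.15). The latter had ratios of -0.33, -0.60, 0.47 and 0.11, which split along the dye orientation. EIF2B4 had 0.23, 0.11, 0.64 and 0.010, all over 0, and a log2 fold change of 0.25 (SE 0.16; unadjusted p = 0.163, limma), and EIF2B3 had 0.24, -0.26, 0.64 and 0.037 (0.16, SE 0.17). For both, the value on array 3 was the highest, and without it EIF2B4 was 0.091 and EIF2B3 0.014. Without array 4 they were 0.41 (unadjusted p = 0.0525, limma) and 0.32. EIF2B1 and EIF2B2 had -0.070 and -0.084. With all 4 arrays, none of the 5 genes had an unadjusted p under 0.05.

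EIF1, which guards the choice of the start codon, had ratios of -0.18, -0.15, -0.35 and 0.28 and a log2 fold change of -0.10 (SE 0.16). Its relative EIF1B had -0.34, 0.16, 0.33 and 0.15 (0.076, SE 0.16), and EIF1AD, which carries a domain like that of EIF1A, had 0.089, -0.23, 0.35 and 0.29 (0.13, SE 0.15). The sign of each differed between arrays.

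EIF5, which makes EIF2 hydrolyse its GTP at the start codon, had the value closest to 0 among the brightest probes of EIF genes. Its ratios were 0.070, -0.10, -0.0065 and 0.10, with a log2 fold change of 0.017 (SE 0.15; 95% interval -0.31 to 0.35). The other probes of EIF5 gave -0.17 and 0.059. EIF5B, the GTPase of subunit joining, had 1.03, 0.21, -0.095 and -0.10. Its log2 fold change of 0.26 (SE 0.17) rested on array 1 and was 0.057 without it. Without array 2 it was 0.47, with an unadjusted p of 0.0452 from limma. The ratios of EIF5B were over 0 only where the vitrified pool was in Cy5. Its dye term, 0.36 (unadjusted p = 0.0693, limma), was larger than its group difference. EIF5A, a hypusine-bearing factor that helps the ribosome past difficult peptide bonds, had -0.052, -0.59, 0.18 and 0.18 (-0.070, SE 0.16), and its relative EIF5A2 had 0.21, 0.27, -0.033 and 0.34 (0.20, SE 0.15). EIF6, which keeps the large subunit from joining too early, had 14.27, 13.83, 13.56 and 13.88 in vitrified pools, against 13.78, 13.87, 14.09 and 14.03 in control pools. Array 1 held its highest and array 3 its lowest vitrified pool, and the log2 fold change was -0.057 (SE 0.16).

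The EIF2C symbols belong to the Argonaute proteins, which carry small RNAs and are not initiation factors by function. EIF2C2, the Argonaute that can cut its target, had ratios of -0.025, -0.40, -0.37 and 0.10 and a log2 fold change of -0.17 (SE 0.16). EIF2C1 had 0.12, -0.27, -0.27 and 0.099 (-0.080, SE 0.16) and EIF2C3 had -0.12, 0.18, 0.33 and -0.13 (0.066, SE 0.16). EIF2C1 was above background in 1 of 4 vitrified and 3 of 4 control readings, and EIF2C3 in 2 and 3, so that these sizes are uncertain.

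Separate probes of 1 gene gave a measure of how far single values can be read. Of the 16 EIF genes with more than 1 tested probe, 8 had probes that all shared a sign, close to the 52.2% of all such genes. The 3 probes of EIF4E gave 0.16, 0.30 and 0.068. EIF3F had 4 probes, of which the brightest gave -0.070 and the others -0.39, -0.30 and 0.13. The probe with 0.13 had its highest ratio on array 2 (0.39), where the other 3 had their lowest (-0.56, -0.95 and -0.64). The 2 probes of EIF6 gave -0.057 and -0.24, yet on array 1 they had 0.49 and -0.50. None of the 3 genes at an unadjusted p under 0.05 had a second tested probe.

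**Figure D4:**
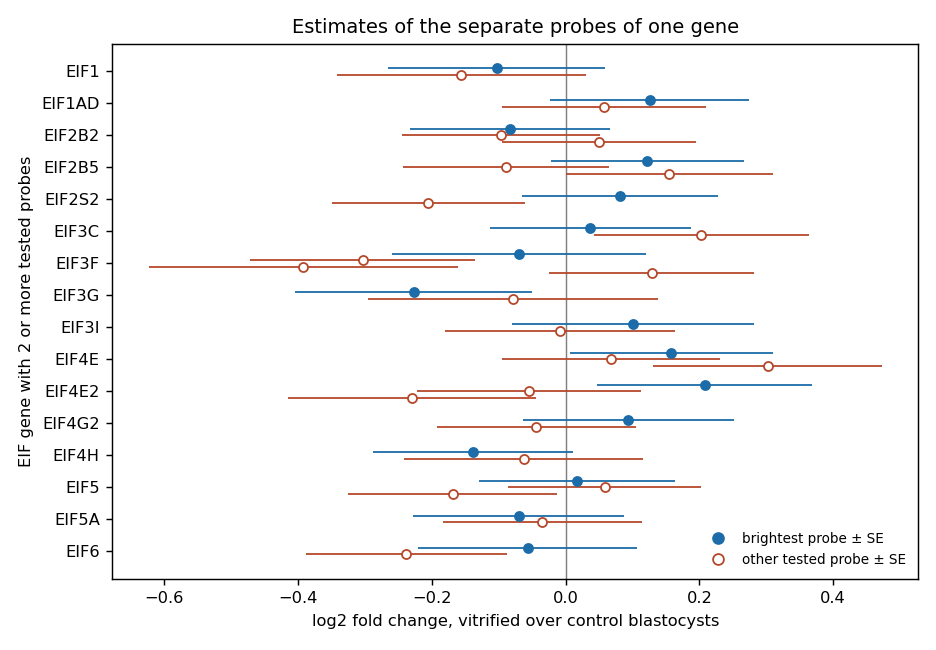
Log2 fold change of vitrified over control blastocysts ± SE (x axis) for each tested probe of the 16 EIF genes with more than 1 tested probe (rows). The brightest probe of a gene is filled blue and the others are open red, and in 8 of the 16 genes the probes lie on both sides of 0.

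Some EIF genes followed the dye orientation more than the treatment. EIF3B, a core subunit of EIF3, had ratios of 0.62, 0.57, -0.46 and -0.55 over arrays 1 to 4. EIF4E2 ran the other way, with -0.34 and -0.15 while the vitrified pool was in Cy5, and 0.95 and 0.37 after the swap. Of its other probes, one had -0.49, -0.80, 0.65 and -0.28 over arrays 1 to 4 and another had -0.43, -0.47, 0.69 and -0.015. The dye term had an unadjusted p under 0.05 for EIF2S2, EIF3B, EIF3G and EIF4E2, which were 4 of 44 EIF genes, against 7.21% of all genes. It was larger in size than the group difference in 22 of 44 EIF genes, against 47.3% of all genes. The dye cannot be told apart from the pools that shared an orientation.

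The rest of the translation machinery and its signaling was examined through 4 lists. Of 18 tested genes of the integrated stress response, which follows EIF2 phosphorylation (its targets and PPP1R15B, a subunit of an EIF2 phosphatase), 3 passed an unadjusted p under 0.05 in limma, each lower in vitrified blastocysts. These were MTHFD2, a mitochondrial folate enzyme (log2 fold change -0.77, SE 0.15; its other probe -0.53), CTH, which makes cysteine (-0.74, SE 0.19), and PSAT1, of serine synthesis (-0.83, SE 0.27), and each had a ratio under 0 on all 4 arrays. The list had a median of -0.047, with array medians of -0.30, -0.17, 0.16 and -0.078. Of 25 genes of the MTOR pathway and of kinases that act on initiation, DDIT4, an inhibitor of MTOR, was higher (0.77, SE 0.25; ratios of -0.11, 1.55, 0.73 and 0.89). RRAGD, a GTPase that recruits MTOR to lysosomes, was lower (-0.42, SE 0.17; above background in 2 of 4 vitrified readings), and the list's median was 0.048.

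Of 16 genes of elongation and termination, EEF1G, a subunit of the elongation factor that reloads EEF1A, was lower (-0.43, SE 0.17; ratios of -0.42, -0.91, 0.13 and -0.54) and none was higher, with a list median of -0.043. Of 15 genes for poly(A)-binding proteins and translational repressors, PDCD4, an inhibitor of EIF4A, was higher (0.35, SE 0.15; ratios of 0.64, 0.52, 0.23 and 0.00083) and none was lower, with a list median of -0.014. No gene of the 4 lists had an adjusted p under 0.05 in limma or met the 2-fold threshold. These shares, 1 of 16, 1 of 15, 2 of 25 and 3 of 18, stand beside 8.8% of all genes at an unadjusted p under 0.05 in either direction.

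Array 3 weighed most on the positive values. Of the 44 EIF genes, 21 had their highest ratio on array 3, whereas 9, 5 and 9 had it on arrays 1, 2 and 4. The SD of the ratio over EIF genes was 0.30, 0.35, 0.44 and 0.28 on arrays 1 to 4, against 0.37, 0.47, 0.57 and 0.33 over all genes, so that array 3 was the most spread for both. Without array 3, none of the EIF genes had an unadjusted p under 0.05 from limma, beside 1.99% of all genes higher and 2.38% lower. Without array 4, EIF3E, EIF3H, EIF3J, EIF3M and EIF4A2 did (5 of 44, beside 7.16% of all genes higher), and without array 2, EIF3M and EIF5B did (beside 1.55% higher). Without array 1, EIF3M and EIF4A2 passed as higher (beside 4.83%) and EIF4A1 as lower (beside 5.56%). With 3 arrays, the single array of an orientation counted as much as the pair in the other orientation.

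**Figure D5:**
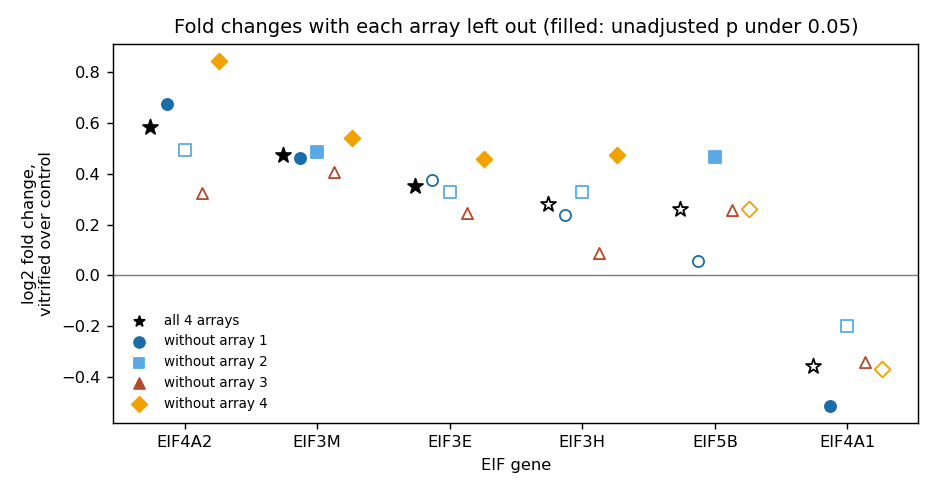
Log2 fold change of vitrified over control blastocysts (y axis) of 6 EIF genes (x axis) from all 4 arrays and with each array left out. Filled symbols have an unadjusted p under 0.05 from limma. Without array 3 no symbol is filled, and the sign of each of the 6 genes stays the same.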

How the data were processed

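The deposited intensity values hold, for each spot and dye, the median signal and the median of the local background as scanned, and the authors had not yet subtracted the background in them. The authors also deposited log2 ratios of Cy5 over Cy3, for which their methods name background subtraction, lowess and quantile normalization. These ratios had r of 0.9989 or more with ratios computed here without the quantile step, and their sign does not follow the dye swap. Here, with R 4.3.3, limma 3.58.1 and the data.table package (version 1.17.8), local background was taken off each spot (floor 0.5), ratios were normalized by loess with weight 0 for control spots and then by quantiles, and all were turned to vitrified over control. A reading was above background when it exceeded the mean plus 2 SD of 153 negative control spots. Probes needed this in 4 or more of 8 readings, which kept 28944 of 43794 probes and 67 of 71 EIF probes. Each fit had a group term and a dye term (2 residual and 6.80 prior degrees of freedom). Tests were two-sided, with Benjamini-Hochberg adjustment over the tested probes, and the brightest tested probe stood for its gene.

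Genes given in full were those at an unadjusted p under 0.05, the 3 with the smallest p of each group and a set chosen by role, 25 in all. Other members named with values, such as EIF3B, EIF3G, EIF3L and EIF4E2, were picked after these were seen. The members, gene lists and tests were chosen with earlier results of these data known. The steps were tested on simulated data. The closing section lists the alternatives. The slow-frozen embryos and the quantitative PCR are not used here.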

Additional observations from a re-analysis of the deposited data

How the results depend on the processing

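Of 10 other ways of processing, the count of lower EIF genes at an unadjusted p under 0.05 became 1 (EIF4A1, -0.35 to -0.36, unadjusted p 0.0422 to 0.0493) with normexp correction, no background subtraction, no filter on dim probes, no between-array normalization and the authors' ratios. EIF3E lost its unadjusted p under 0.05 with probes above background in all 8 readings, median centring, no dye term and an intensity trend with a robust fit (p between 0.0513 and 0.0619), where the value stayed at 0.35. EIF4A2 and EIF3M kept theirs in all 10. With the mean over a gene's probes, EIF2S2 became -0.062 and EIF5 -0.031. The EIF5 median became 0.017 with probes above background in all 8 readings, where EIF5A2 is left out. EEF1G was no longer called (0 genes) without between-array normalization and with the authors' ratios, and RRAGD (0) with the 8-reading filter and no background subtraction. PDCD4 was not called (0) with the 8-reading filter, median centring, no dye term and the trend, and 1 gene of the stress response list was higher without a filter. The cause was not tested.

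Leaving out each array in turn gave 0 to 5 higher and 0 to 1 lower EIF genes, and 0 at the study's threshold or an adjusted p under 0.05. The median ranged from 0.030 to 0.11 for all EIF genes, 0.015 to 0.22 for EIF3, 0.014 to 0.13 for EIF2B, 0.038 to 0.17 for EIF4, 0.016 to 0.15 for EIF5, 0.019 to 0.076 for EIF2, -0.18 to -0.0072 for EIF2C and, with a turn of sign, -0.049 to 0.12 for EIF1. Signs turned for EIF1 (-0.26 to 0.055), EIF1B (-0.049 to 0.20), EIF2A (-0.0066 to 0.15), EIF2C1 (-0.18 to 0.018), EIF2C3 (-0.048 to 0.18), EIF2S1 (-0.12 to 0.029), EIF5 (-0.025 to 0.059), EIF5A (-0.20 to 0.064) and EIF6 (-0.19 to 0.076). The lists ranged from 0 to 3 higher and 0 to 5 lower for MTOR, 0 to 1 and 0 to 2 for elongation, 0 to 1 and 2 to 3 for the stress response, and 0 higher for poly(A) binding. No paired analysis was possible beyond the arrays themselves because each array already pairs 1 vitrified and 1 control pool.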
